A study of Drosophila melanogaster with 3 samples.

Results

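The bithorax complex is a stretch of Drosophila melanogaster arm 3R that carries the Hox genes Ubx, abd-A and Abd-B. Binding of the transcription factor Grainy head (Grh) over it was read from deposited lists of chromatin immunoprecipitation sequencing (ChIP-seq) peaks. Members were chosen by position alone: the peaks of either anti-Grh list whose first base lay from 12480001 to 12810001 on 3R of the dm3 build, a stretch of 330 kb. There were 81 of them among 13796 peaks in the series, 13 of the 1638 peaks found with a mouse anti-Grh antibody and 68 of the 12158 found with a rabbit anti-Grh antibody. Chromatin came from whole w1118 embryos aged 13 to 16 h, fixed in 1.8% formaldehyde and sonicated, and both libraries share that strain and age. The mouse anti-Grh and the rabbit anti-Grh antibody had 1 library each, so no value below has a spread between replicates. A rabbit IgG library, the control immunoprecipitation, was not analysed here. Read depths are unknown, and in whole embryos a site bound in few cells cannot be told apart from a site bound weakly in many.

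Hox genes encode homeodomain transcription factors that give body segments their identity. Ubx acts in the posterior thorax and the anterior abdomen, abd-A in the abdomen behind it, and Abd-B in the posterior abdomen and genitalia. Their order along the chromosome follows the order of the body parts they control, and long regulatory regions between them, with enhancers, insulators and Polycomb response elements, set where each is active. Grh is a factor of the epidermis, trachea and other epithelia. It was first purified, under the names NTF-1 and Elf-1, through its binding to promoters that include that of Ubx, and it has also been reported to bind a Polycomb response element of the Abd-B region.

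In the RefSeq gene table of release 6, a later build than dm3, the 3 Hox genes were found by symbol, and their order by increasing coordinate was Ubx, abd-A, Abd-B. That table was used for names and neighbours only. It lists 16 genes from Ubx to Abd-B, of which 6 are protein-coding: Ubx, CG31275, Glut3, a sugar transporter of the glucose transporter family, abd-A, MSAmiP and Abd-B. The others are 7 long non-coding RNAs, 1 antisense RNA and 2 microRNAs, mir-iab-4 and mir-iab-8, which are made from opposite strands of 1 locus and repress Hox genes. No dm3 annotation was used, so peaks could not be assigned to a promoter, an intron or a regulatory element. They are placed here by position, with the left side being that of Ubx and the right side that of Abd-B. Peaks are 2 bp points, named by their first base counted from 1. The score is the authors' value for each peak, of unstated unit, and is used to order peaks within a list.

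The complex was among the fullest places of 3R for both antibodies. It held 13 mouse peaks, or 3.94 per 100 kb, against 1.58 per 100 kb in the rest of 3R, a ratio of 2.50. For the rabbit antibody it held 68 peaks, or 20.6 per 100 kb, against 10.6 per 100 kb in the rest of 3R, a ratio of 1.94. Counted in every 330 kb window of the arm at steps of 10 kb (2757 windows), the mouse count of the complex was 2.60 times the median window, which held 5 peaks (quartiles 3 and 7, highest 17). Fewer mouse peaks were found in 96.2% of windows and more in 2.29%, that is in 63 windows, 58 of which shared no base with the complex. The rabbit count was 1.94 times the median window of 35 peaks (quartiles 25 and 45, highest 91). Fewer rabbit peaks were found in 98.6% of windows and more in 1.20%, that is in 33 windows, 32 of which shared no base with the complex. The windows overlap each other, so these shares describe where the complex stands on the arm and are not probabilities. Counting the higher-scoring 50% of either list alone, the complex held 5.0 times the median window for the mouse and 3.06 times for the rabbit antibody.

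**Figure D1:**
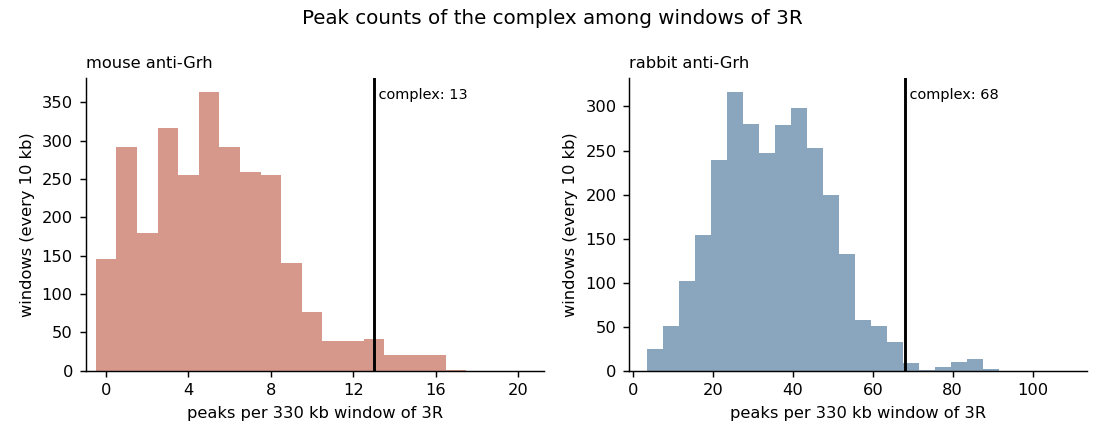
Peaks per 330 kb window of 3R, with windows every 10 kb, for the mouse (left) and the rabbit (right) anti-Grh list; bars are numbers of windows and the black line is the bithorax complex. The complex, with 13 mouse and 68 rabbit peaks, stands to the right of most windows in both panels.

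Taken over the whole 330 kb on either side, the crowding did not run on into the neighbouring sequence. The 330 kb to the left held 4 mouse and 35 rabbit peaks, and the 330 kb to the right held 2 mouse and 27 rabbit peaks. The fullest rabbit window of the arm, from 11860001 to 12190000 with 91 peaks, lay mostly farther left and overlapped the far end of the left 330 kb. The fullest mouse window was from 16130001 to 16460000 with 17. Some mouse windows that began to the left of the complex and overlapped it held more peaks than the complex itself. The crowding of mouse peaks thus did not end sharply at the left bound. For the mouse antibody the last peak before the left bound was at 12450991 (score 6.73) and the first inside at 12481395 (3.33). Its last peak inside was at 12784235 (3.01) and its first beyond at 12882038 (5.48). For the rabbit antibody the left bound fell between peaks at 12451787 (9.04) and 12481412 (14.5). The right bound fell between peaks at 12807248 (6.10) and 12810155 (6.15).

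Every mouse peak of the complex had a rabbit peak beside it. All 13 lay within 250 bp of one, or 100% (exact 95% binomial interval 75.3 to 100%), where 97.3% of all mouse peaks on 3R did, so the share was near that of the arm. Among the rabbit peaks of the complex, 14 of 68, or 20.6% (11.7 to 32.1%), had a mouse peak within 250 bp. Of all rabbit peaks on 3R it was 15.5%, a value that lies inside the interval of the complex. Intervals cover counting error only, since peaks are not replicates. The complex held 5.23 rabbit peaks per mouse peak, against 6.74 in the rest of 3R.

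**Figure D2:**
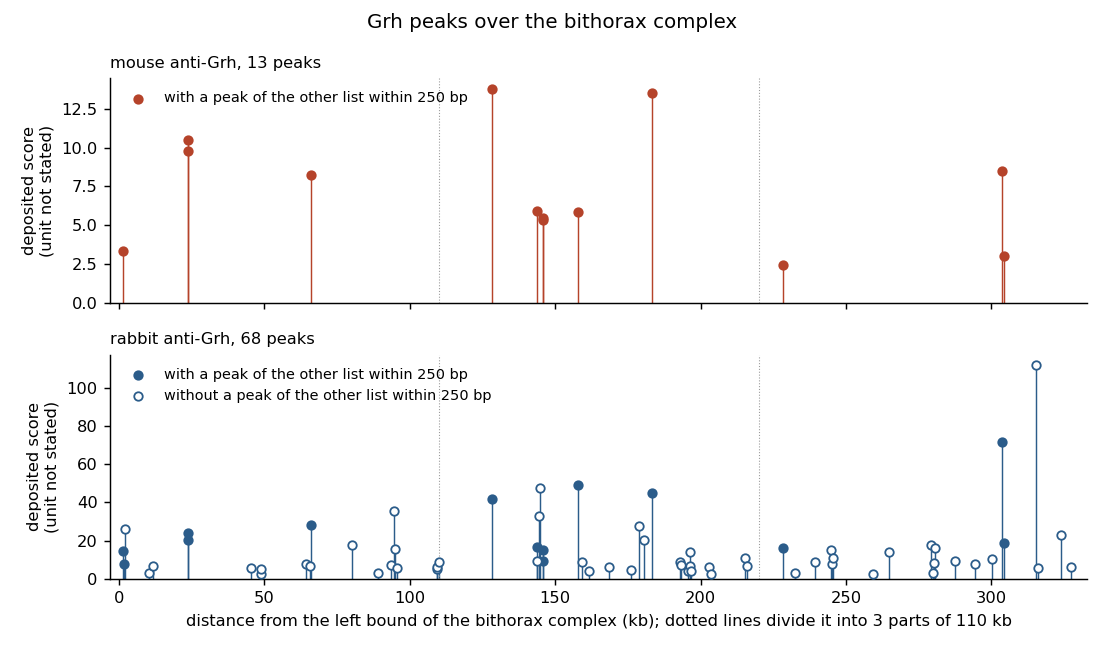
Deposited score (vertical axes, unit not stated) of each peak against its distance in kb from the left bound of the complex, with the 13 mouse peaks above and the 68 rabbit peaks below. Filled points have a peak of the other list within 250 bp, as all 13 mouse and 14 rabbit peaks do, and the tallest rabbit peak, at the right, has none.

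From left to right, the 13 mouse peaks stood at 10 places, taking peaks within 1 kb of their neighbour as 1 place. At the left edge a weak mouse peak at 12481395 scored 3.33 and faced one of the rabbit list, 17 bp off, that scored 14.5. A pair of mouse peaks at 12503681 and 12503848 had scores of 10.5 and 9.81. Each had its own rabbit peak, at the same base for the left one (score 20.3) and 3 bp away for the right one (23.9). Both antibodies thus marked a double point there, with mouse peaks 167 bp apart and rabbit peaks 170 bp apart. At 12546051 the mouse score was 8.21 and the rabbit peak 7 bp away had 28.2.

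The middle of the complex held its strongest mouse peaks. That at 12608406 had a score of 13.8, order 38 of 1638 in the list and order 11 on 3R, and its rabbit partner 14 bp away had 42.0. It stood alone, with no other rabbit peak within 1 kb. The mouse peak at 12663436 had a score of 13.5, order 40 in the list, and its rabbit partner 2 bp away had 45.2, also with no other rabbit peak within 1 kb. These isolated points stood high in both lists by score, at 2.32% and 2.44% of the mouse list and 1.89% and 1.50% of the rabbit list.

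Between them lay the most crowded part. The 10 kb from 12620001 to 12630000 held 3 mouse and 6 rabbit peaks, as many rabbit peaks as any bin of 10 kb in the complex. The mouse peaks there were at 12623608, 12625720 and 12625971, with scores of 5.90, 5.43 and 5.36. Their rabbit partners, 6, 13 and 2 bp away, had scores of 16.9, 15.1 and 9.36. The strongest rabbit peaks of that bin were not the partners of mouse peaks. They were at 12624367 (score 33.0) and 12624611 (47.4), 759 and 1003 bp from the nearest mouse peak. At 12637775 a mouse peak of score 5.83, of middling place in its list, faced one of the rabbit list, 37 bp off, with 48.9, order 149 of 12158.

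The right 110 kb, toward Abd-B, held 3 mouse peaks, against 4 in the left and 6 in the middle 110 kb. All but that at 12783772 were weak. A mouse peak at 12708367 had a score of 2.41 and its rabbit partner 20 bp away had 15.9. After it came the longest stretch of the complex without a mouse peak, 75405 bp, in which the rabbit list had 14 unpartnered peaks. The last mouse peaks, at 12783772 and 12784235, had scores of 8.47 and 3.01. Their rabbit partners were 88 bp away with 71.6 and 4 bp away with 18.7.

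The 2 points of a pair lay 7 bp apart at the median over the 13 pairs (quartiles 3 and 17 bp), and 11 bp apart (6 and 20 bp) over 418 pairs in the rest of 3R. The pair 88 bp apart was the widest in the complex. Across the 13 pairs the order of the scores had a Spearman rho of 0.65, and over the pairs of the rest of 3R it was 0.67. Both are descriptions across peaks of 2 libraries that share their chromatin source, and 13 points give little precision.

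The score of the rabbit peak over that of its mouse partner was higher at the right side. Scores of the lists need not share a scale, so the ratio is used only to set pairs against other pairs. Its median was 3.34 in the complex (lowest 1.74, highest 8.45) and 3.33 in the rest of 3R (quartiles 2.48 and 4.18). In the left 110 kb the 4 pairs had ratios from 1.93 to 4.35. In the middle 110 kb the 6 pairs ran from 1.74 to 8.40, the highest being the pair at 12637775. In the right 110 kb the 3 pairs ran from 6.21 to 8.45, so that all lay above the 90th percentile of the rest of 3R, 5.48. The pairs there at 12708367 and 12784235 had mouse scores of 2.41 and 3.01, near the lowest of the mouse list, 2.01. Their ratios thus rest on small divisors, so position and a low mouse score cannot be told apart for them. The pair at 12783772 had a mouse score of 8.47. In all, 4 of 13 pairs of the complex exceeded that value, which 42 of the 418 pairs in the rest of 3R exceed by construction. That percentile and the division into 110 kb were applied after the values were seen, and no test was made.

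**Figure D3:**
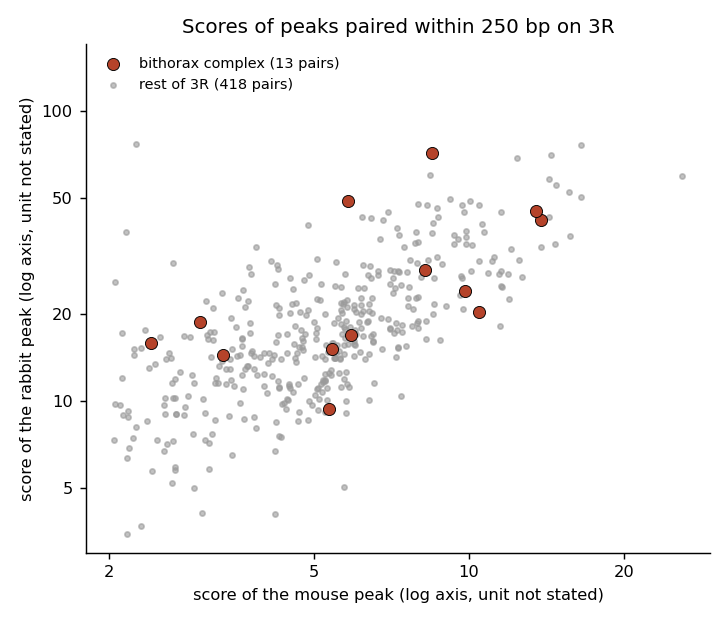
Score of the rabbit peak against that of the mouse peak for peaks paired within 250 bp on 3R, both on log axes and of unstated unit; red points are the 13 pairs of the complex and grey points the 418 pairs of the rest of 3R. Most red points lie within the grey cloud, and the 4 pairs with ratios from 6.21 to 8.45 lie toward its upper edge.

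The rabbit peaks of the complex scored higher than others of their arm. The median over the 68 was 8.95 (quartiles 6.10 and 17.7), against 5.98 (3.93 and 10.6, 2931 peaks) in the rest of 3R, a ratio of 1.50 (1.18 to 2.39, the exact 95% binomial interval of the median of the complex). That interval counts grouped peaks as independent and takes the median of the rest of 3R as fixed. With the highest peak of each place alone, the ratio was 1.61. Windows of 330 kb with a lower median made up 96.3% of the arm. Of the 68 peaks, 52 or 76.5% were in the upper 50% of the rabbit list by score, against 50.0% of the rest of 3R. In the top 10% of the list were 16 or 23.5% of them, against 10.3% in the rest of 3R. In the 330 kb to the left, the median over 35 rabbit peaks was 7.46, so higher scores were not confined to the complex. In the 330 kb to the right it was 4.54 over 27 peaks, below the rest of 3R. Of these peaks, 7 of the 35 on the left and 3 of the 27 on the right were in the top 10% of the list. No other 330 kb window of 3R that lay apart from the complex held as many such peaks, the highest having 13 and the median window 3. With its bounds drawn in by 20 kb the complex held 13, over a shorter stretch than those windows. Counts in the top 10% were not among the planned results.

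For the mouse peaks the median score was not distinguishable from that of the arm. It was 5.90 (quartiles 5.36 and 9.81, 13 peaks), against 5.26 (3.76 and 7.03, 435 peaks) in the rest of 3R, a ratio of 1.12 whose exact binomial interval, 0.632 to 1.99, spans 1. The same limits hold for this interval, and the ratio was 1.31 with the highest peak of each place alone. Of the windows with a mouse peak, 71.0% had a lower median and 28.6% a higher one. In the upper 50% of the mouse list by score were 10 of the 13, or 76.9%, against 49.9% of the rest of 3R. That share was close to the 76.5% of the rabbit peaks, but on few peaks. In the top 10% of the mouse list by score were 4 of the 13, or 30.8%, against 10.1% in the rest of 3R. As many were found in 0.743% of the windows apart from the complex, which overlap and make 2 separate places, and more in none. The 4 include both peaks of the double point at 12503681 and 12503848. With only the highest peak of each place kept in the list, 3 were in the top 10%. The number that the authors wrote into each peak's name is another order, of unstated basis. By that number no mouse peak of the complex was in the first 10% of the list, while 20 rabbit peaks were.

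**Figure D4:**
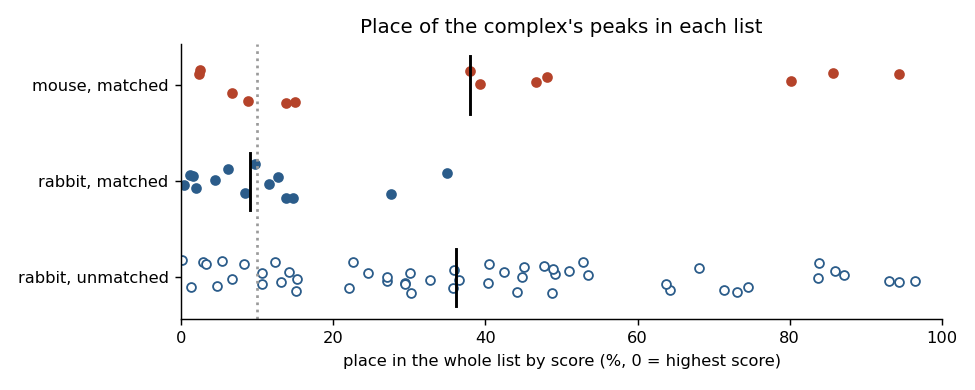
Place of each peak of the complex in its whole list by score, as a percentage with 0 for the highest score, for the 13 mouse peaks, the 14 rabbit peaks with a mouse peak within 250 bp and the 54 without; black bars are medians, the dotted line marks 10%, and vertical scatter within a row has no meaning. All 14 matched rabbit peaks lie in the upper 50% of the list, whereas the unmatched ones reach from 0.0905% to 96.4%.

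Rabbit peaks with a mouse partner had a median score of 19.5 (quartiles 15.3 and 38.5, 14 peaks), and those without had 7.69 (5.70 and 14.3, 54 peaks), a ratio of 2.53. In the rest of 3R the ratio was 2.96. Partnered peaks made up 7 of the 14 between 1% and 10% of the list by score, or 50.0% (23.0 to 77.0%), against 60.7% in the rest of 3R. Between 10% and 25% they made up 4 of 14, or 28.6% (8.39 to 58.1%), against 40.0%, and between 25% and 50% they were 2 of 22, or 9.09% (1.12 to 29.2%), against 62 of 689 in the rest of 3R. In the lower 50% of the list 0 of 16 had a partner (0 to 20.6%), and the rest of 3R had 1.64%. At each of these levels the value of the rest of 3R lay inside the interval of the complex.

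Strong rabbit peaks without a mouse peak were found on both sides of the complex. The highest-scoring of all was at 12795453, near the Abd-B end, with a score of 112, order 11 of 12158 in the list and order 4 on 3R. No mouse peak lay nearer to it than 11218 bp. The next, at 12783684 (score 71.6, order 51), was the partner of a mouse peak of score 8.47, and these were the only members in the top 1% of the rabbit list. The peak at 12574441 scored 35.5 and was 28390 bp from the nearest mouse peak. It belonged to a group of 4 rabbit peaks from 12573592 to 12575437 in which none had a partner.

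The remaining rabbit peaks among the 10 highest were those at 12637812, 12624611, 12663438, 12608392, 12624367, 12546044 and 12658953, with scores from 27.4 to 48.9. Of the 10 highest, 5 had a mouse partner and 5 did not. The peak at 12658953 (27.4) and its neighbour at 12660566 (20.5) lay 4483 and 2870 bp to the left of the mouse peak at 12663436. At the left edge, the rabbit peak at 12482050 (26.0) was higher than the one next to the mouse peak of that place (14.5) and lay 655 bp from that mouse peak. Over the 54 rabbit peaks without a partner, the median distance to a mouse peak was 13214 bp (quartiles 9006 and 19895 bp). Only 4 of them, or 7.41%, were within 1 kb of a mouse peak, against 9.72% in the rest of 3R, and 42, or 77.8%, were farther than 5 kb, against 72.4%.

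Chained at gaps of up to 1 kb, the 68 rabbit peaks made 41 places, of which 25 were single peaks, 9 had 2 peaks, 3 had 3 and 4 had 4. Groups of 2 or more took in 43 of the 68 peaks, or 63.2% (exact 95% interval 50.7 to 74.6%), against 51.4% in the rest of 3R. They made up 39.0% of the places (24.2 to 55.5%), against 29.0% in the rest of 3R. Both values of the rest of 3R lie inside the intervals of the complex. Peaks of the same group count together, so the interval over peaks does not measure their spread. By the interval over places, grouping was not distinguishable from that of the arm at this number of places. The groups of 4 were from 12573592 to 12575437, from 12623602 to 12624611, from 12675780 to 12676674 and from 12759249 to 12760646. Only the second of these contained a partner of a mouse peak, and 6 of the 16 groups with 2 or more peaks did. The authors gave 1 rank to several neighbours, which was so for 27 rabbit peaks in 12 sets that spanned 144 to 621 bp. A rank in common did not mark neighbours alone in either list. In the mouse list the peaks at 12481395 and 12623608, 142213 bp apart, had the same one. Over the whole rabbit list, 490 of the 1900 ranks held by 2 or more peaks were held on 2 or more chromosomes. What a common rank means is not stated, and whether close neighbours are separate sites was not tested.

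Peaks of both antibodies occurred in all 3 parts of the complex. The left 110 kb held 4 mouse and 22 rabbit peaks, the middle 110 kb held 6 and 25, and the right 110 kb held 3 and 21. Median rabbit scores were 7.40 in the left, 9.36 in the middle and 10.2 in the right part, and median mouse scores were 9.01, 5.86 and 3.01. The medians of the lists thus ran in opposite order, on 3 to 6 mouse peaks a part. Of the 33 bins of 10 kb, 9 contained both mouse and rabbit peaks, 19 contained rabbit peaks without mouse peaks, 0 the reverse, and 5 were empty.

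The empty bins all lay in the left 140 kb, toward Ubx. The longest stretch between neighbouring rabbit peaks was 21668 bp, from 12503851 to 12525519, followed by 18463 bp from 12589929 to 12608392 and 15565 bp from 12528870 to 12544435. Gaps shorter than the longest of these made up 88.9% of those on 3R. The other bin with 6 rabbit peaks, from 12670001 to 12680000, had no mouse peak, and its scores reached only 14.2. In the right part, from 12720001 to 12780000, rabbit peaks occurred in every bin, with scores of at most 17.7 and no mouse peak.

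**Figure D5:**
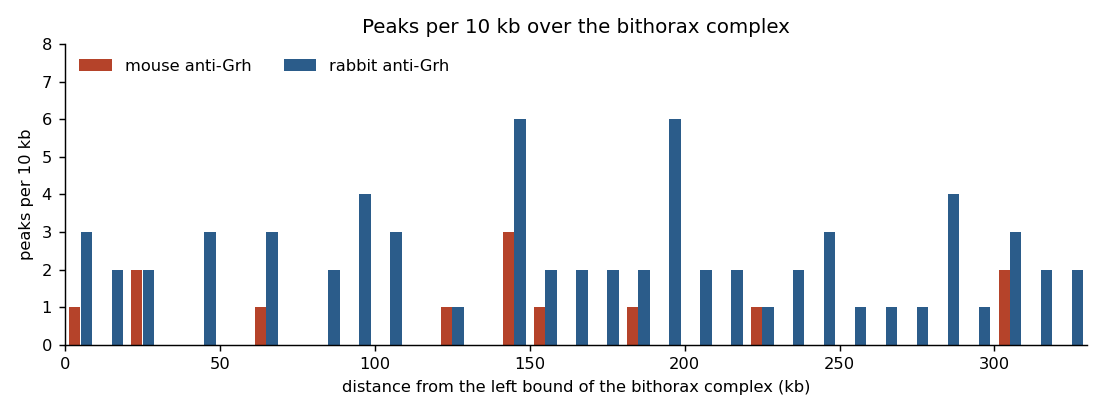
Number of mouse (red) and rabbit (blue) peaks in each 10 kb of the complex against the distance in kb from its left bound. The highest blue bars have 6 peaks, one of them with 3 mouse peaks and the other with none, and the 5 empty bins lie in the left 140 kb.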

How the data were processed

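ChIP-seq peaks of Grh in Drosophila embryos were analysed from 1 list per antibody. Reads were aligned with Bowtie to dm3, per the submitters' processing notes. How peaks were called, with which cutoffs and whether against the IgG library, is not given in the labels or files. Each deposited row gives a 2 bp point, a numbered and ranked name, and a score whose unit the authors do not state. Each list came from 1 library, so peaks were not called on pooled samples.

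The members and settings were chosen with earlier results of these data known. Every mouse peak of the complex and the 10 highest rabbit peaks were to be named, with the densest bin and the longest gap; other peaks were named after their values were seen. Matching used the distance between first bases (250 bp), groups a gap of 1 kb, and windows of 330 kb every 10 kb up to the highest peak end on 3R (27893908), which understates the arm. Shares have exact Clopper-Pearson intervals at 95%. With 1 library per antibody no test was made. Window counts and distances were tested on simulated data. The planned promoter and protein sequences and the motif search were not run, as the sources used here hold no sequence. SciPy 1.17.1 gave the intervals, under Python 3.11.15 with pandas 2.3.3 and NumPy 2.4.6, and matplotlib 3.10.9 drew the plots.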

Additional observations from a re-analysis of the deposited data

How the results depend on the processing

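Of 46 alternative values for 8 results, 44 stayed within the counting interval of the reported value or, for counts of peaks in the top 10%, within 1.5 times it. For shares of windows that interval was taken over as many windows as fit side by side on 3R (89.9 to 99.3% for the mouse and 93.5 to 99.97% for the rabbit antibody). The counts of peaks in the top 10% were added to the planned results, and their alternatives were chosen after seeing the data. With the number in each peak's name in place of the score, the rabbit median of the complex stood 2.43 times ahead of the rest of 3R (1.50 by score), and 0 in place of 4 mouse peaks were in the top 10%. The cause was not tested. The share of windows with fewer peaks ran from 94.5% to 97.6% for the mouse and from 96.6% to nearly all (99.96%) for the rabbit antibody over 7 alternatives each, 1 of them over all major arms. The multiple of the median window moved further. In the upper 50% by score it was 5.0 for the mouse (2.60 with all peaks) and 3.06 for the rabbit antibody (1.94). With groups counted once, 41 rabbit places in place of 68 peaks were 1.71 times the median window, and 10 mouse places in place of 13 peaks were 2.0 times it. The share of matched mouse peaks was 100% in all 7. With all 13 matched at 250 bp, longer distances, grouping and narrower bounds could give no other value, and wider bounds added no mouse peak. Those alternatives are among the 44 but check nothing. The share of matched rabbit peaks ran from 19.1% at 100 bp to 26.5% at 1000 bp. Depth is unknown, so a site the mouse antibody did not bind cannot be told apart from one below detection. No paired analysis was possible because neither antibody had a replicate, which also left none to omit.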
